A study of Mus musculus with 24 samples.

Results

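The cerebellum of LLC tumour-bearing mice was compared with that of mock-injected mice, using 8 of the 24 libraries of a bulk RNA sequencing series that also covers neocortex and hippocampus. The 4 LLC libraries carry the replicate numbers 1 to 4 and the 4 control libraries the numbers 14 to 17. All mice were C57BL/6J males aged 4 months, with LLC cells left to grow for up to about 3 weeks after injection in 1 group and a mock injection in the other. The labels do not spell out LLC, usually short for Lewis lung carcinoma, a cell line from a mouse tumour, and the series title speaks of melanoma. They call the libraries biological replicates without saying how many animals each tissue sample held. Values are TPM, a unit of transcript abundance. They correct for transcript length and add up to the same sum in each library. Genes with a mean of at least 1 TPM over the 8 libraries were tested, 14624 of the 47643 symbols in the table.

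The cerebellum is built mainly from small excitatory granule cells, from Purkinje cells and from Bergmann glia, the astrocytes that span its molecular layer. Purkinje cells are the output neurons of the cerebellar cortex. A tumour elsewhere in the body reaches the cerebellum through the blood. Cytokines act on the vessel wall, where endothelial cells respond through the STAT3 and NF-kB pathways with adhesion molecules and acute-phase proteins. Wasting disease is also known for raised glucocorticoid hormone, which acts on most brain cells.

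The 8 libraries carried granule cell transcripts, which define their tissue. Gabra6, a GABA receptor subunit of granule cells, lay between 455 and 986 TPM. LLC replicate 1 stood apart in its make-up. Over 20 granule cell genes its mean log2 difference from the controls was -0.63, and over 20 Purkinje cell genes -0.75, while LLC replicates 2 to 4 lay between -0.02 and 0.09 on both lists. Hoxb5, a transcription factor of the caudal hindbrain and spinal cord, reached 18.3 TPM in LLC replicate 1, against at most 0.336 TPM in the other LLC libraries and 1.64 TPM in the highest control, replicate 14. Across the 11 tested genes of 24 on the brainstem and deep nuclei list the mean difference was 1.74 in LLC replicate 1. The other LLC libraries lay at -0.31 to -0.03 and control replicate 14 at 0.47. For 5 of the 11, Hoxb5 among them, the control mean was below 1 TPM, and only 6 of the list were tested without LLC replicate 1. The 1.74 thus partly follows from which members entered the test. Transcripts of LLC replicate 1 were also skewed by length. In the 10% of genes with the longest transcripts the median log2 difference from the controls was -0.44 in LLC replicate 1. It was -0.12 in LLC replicate 2, -0.05 in 3 and -0.06 in 4, and the controls spanned -0.06 to 0.04. Values without this library are given for some of the results below, but not for the differences of single genes between regions.

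In LLC cerebellum, the genes that rose included 8 of 13 tested red blood cell genes, 5 of 8 neutrophil genes, 10 of 24 acute-phase genes and 7 of 13 genes of vessel wall activation. Those that fell included 6 of 25 cholesterol synthesis genes, 4 of 20 heat shock genes and 3 of 20 Bergmann glia and astrocyte genes. With limma and Benjamini-Hochberg adjustment at 0.05, 366 genes passed, 2.5% of those tested. Of these, 180 rose (1.23%) and 186 fell (1.27%), 37 and 23 of them by at least 2-fold on the log2(TPM + 1) scale. In each of the 366 the 4 LLC libraries lay wholly on one side of the 4 controls. Among all tested genes, 939 had every LLC library above every control (6.42%) and 1503 had every one below (10.3%). The median log2 fold change over all tested genes was -0.04, and 41.2% were above 0.

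**Figure D1:**
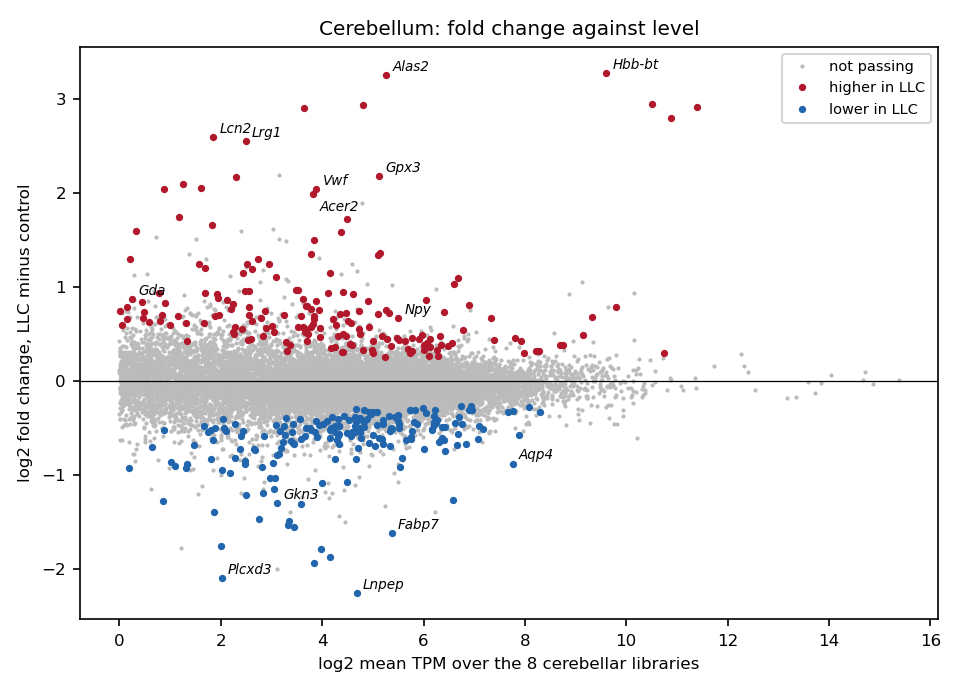
Log2 fold change (LLC minus control, on log2(TPM + 1)) against the log2 mean TPM of each of the 14624 tested genes, with the 180 higher and 186 lower genes coloured. The haemoglobin genes, Alas2, Lcn2 and Lrg1 stand at the top and Lnpep and Plcxd3 at the bottom.

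The number of calls depended on single libraries. It was 1288 without LLC replicate 1, and all 362 of the original calls still testable were among these. It was 1570 without LLC replicate 4, 17 without LLC replicate 2 and 48 without LLC replicate 3. Without control replicates 14 to 17 in turn it was 27, 9, 6 and 45. No called gene changed sign in any of these fits. Calls for 6 genes (Hbb-bt, Lcn2, Lrg1, Tmem252, Chil3 and Vwf) held in all 8. For the larger gene lists below, the range of the counts over these 8 fits is given, the low ends coming from fits that lack LLC replicate 2 or 3 or a control. Leaving out a library also changes the number of degrees of freedom.

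Transcripts of red blood cells had the largest increases. Summed over the 4 adult haemoglobin genes (Hbb-bt, Hbb-bs, Hba-a2, Hba-a1), LLC replicates 1 to 4 held 14770, 14341, 15476 and 4228 TPM, and control replicates 14 to 17 held 1543, 1210, 1617 and 1350 TPM. Even the lowest LLC library, replicate 4, stood above every control, though well below the other 3. Hbb-bt, an adult beta globin (chromosome 7, 103812524 to 103813996), rose by a log2 fold change of 3.28 ± 0.36 (SE). Because the alpha globin copies are near-identical, as are the beta copies, how reads were divided between them is uncertain. Alas2, which catalyses the first step of haem production in red cell precursors, read 95.6, 74.0, 97.0 and 19.7 TPM in LLC replicates 1 to 4 and 4.70 to 6.66 TPM in controls. Its log2 fold change was 3.26 ± 0.43. Of 13 tested erythrocyte and haem genes 8 rose and 0 fell, with a median log2 fold change of 1.30, and 1 to 10 rose when a library was left out. Slc4a1, a membrane protein of the red cell, rose by 1.25 ± 0.22; it was picked out after its values were seen. In bulk tissue, more cells of a type and more RNA per cell cannot be told apart, and how much blood was left in the tissue vessels was not measured.

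Neutrophil transcripts were also higher, but their order among the libraries was another. S100a9, a subunit of the neutrophil protein calprotectin, read 22.8, 59.7, 25.6 and 93.6 TPM in LLC replicates 1 to 4 and 1.85 to 9.14 TPM in controls. Here LLC replicate 4, the lowest for haemoglobin, was the highest. The partner subunit S100a8 followed the same order, with 10.3, 29.0, 14.1 and 38.6 TPM against 0.581 to 3.21 TPM. Log2 fold changes were 2.94 ± 0.48 for S100a9 and 2.91 ± 0.41 for S100a8. Chil3, a chitinase-like protein of myeloid cells, reached at least 3.8 TPM in each LLC library and 0 to 0.536 TPM in controls, a log2 fold change of 2.10 ± 0.16. Retnlg, a resistin-like protein of neutrophils, rose by 2.06 ± 0.27. Of 20 neutrophil genes on the list, 8 reached the mean of 1 TPM, and 5 of these rose and 0 fell, with 1 to 7 risers when a library was left out. For 4 of the 8 the control mean was below 1 TPM, so that they were tested only because LLC was high, and 3 of the 5 risers were among them. The other 12 members were not tested. Other leukocytes gave fewer calls. In the monocyte and macrophage list 1 of 8 genes rose, Fn1 (fibronectin, also a vascular matrix gene). None of 3 tested T, B and NK cell genes, 19 microglia genes, 13 complement genes or 13 MHC genes passed. The interferon-stimulated list had 1 riser of 21, Ifitm3, a membrane protein that blocks virus entry, by 0.43 ± 0.09.

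**Figure D2:**
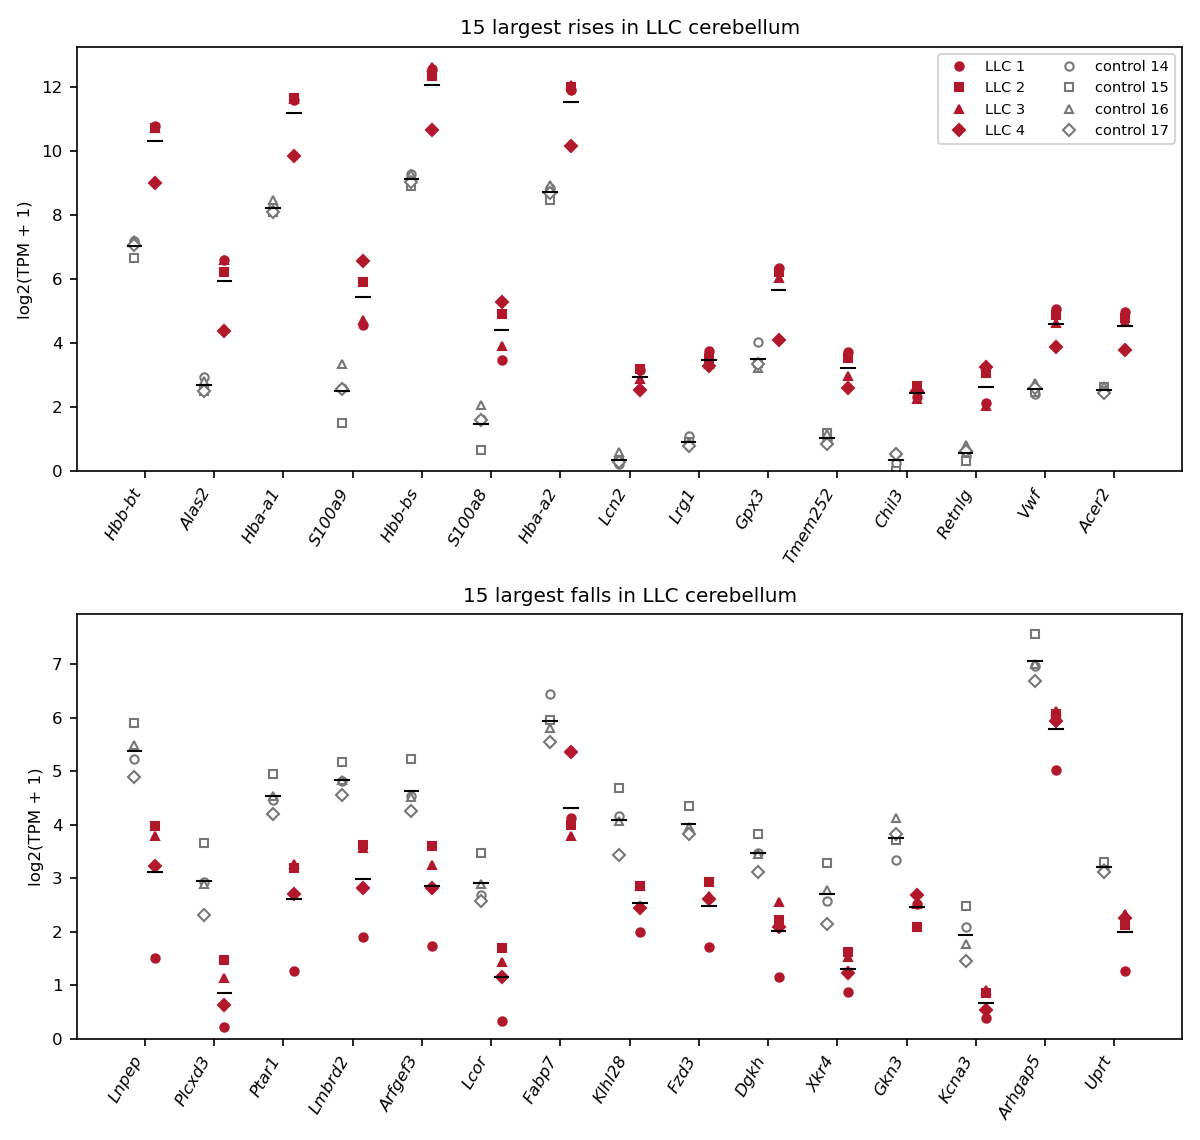
Log2(TPM + 1) of the 15 genes with the largest rises (upper panel) and the 15 with the largest falls (lower panel), 1 symbol per library, red for LLC and open grey for control, with group means as bars. Groups do not overlap in any of the 30 genes, LLC replicate 4 lies lowest for the haemoglobin genes, and LLC replicate 1 lies lowest for most of the falling genes.

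Acute-phase genes were higher, with Lcn2 and Lrg1 among the 6 calls that held whichever library was left out. Lcn2, which encodes the iron-scavenging protein lipocalin 2 (chromosome 2, 32384633 to 32388252), read 8.09, 8.25, 6.46 and 4.84 TPM in LLC replicates 1 to 4 and 0.178, 0.246, 0.515 and 0.220 TPM in controls. Its lowest LLC library stood above its highest control by a wide margin, and the log2 fold change was 2.60 ± 0.16 (limma adjusted p = 0.000171). Lrg1, a secreted glycoprotein that acts on vessels (chromosome 17, 56119678 to 56122001), read 12.4, 10.8, 9.30 and 8.87 TPM against 0.734 to 1.15 TPM, a log2 fold change of 2.56 ± 0.12. Of 29 acute-phase and STAT3 target genes 24 were tested, 10 rose and 0 fell, with a median of 0.41 (0.25 without LLC replicate 1). For 5 of the 24 the control mean was below 1 TPM, so that only the LLC level brought them into the test, and 4 of these rose (Lcn2, Lrg1, Ch25h and Bcl3). Of the other 19, 6 rose. Every LLC library stood above every control in 13 of the 24. The count was 10 without LLC replicate 1, and 2 to 10 over the fits that leave out a library. Ch25h, the enzyme that makes 25-hydroxycholesterol, rose by 1.75 ± 0.21, and Bcl3, a nuclear partner of NF-kB, by 0.75 ± 0.12. The Bcl3 call held in 0 of the 4 fits without a library in which it could be tested. Among the receptors, Osmr, which binds oncostatin M, rose by 0.65 ± 0.11, and Il1r1, the receptor of interleukin 1, by 0.64 ± 0.10. Socs3, the feedback inhibitor of STAT3 signalling, rose by 0.63 ± 0.12, from 1.75 ± 0.423 to 3.21 ± 0.272 TPM (SD, n = 4 each).

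Promoters of these 10 genes were searched because STAT3 and NF-kB act on this gene group. The motifs were TTCNNNGAA for STAT proteins; GGG and TTCC with any 3 bases between them for NF-kB; and GNACA and TGTNC with any 3 bases between them for the glucocorticoid receptor, on both strands of the 250 bases before each RefSeq start site on GRCm38.p6. Of the 9 genes with an entry, 2 held the STAT letters (Icam1 and Socs3), 2 the NF-kB letters (Lrg1 and Il1r1) and 0 the glucocorticoid letters. Counted by promoter these were 2, 2 and 0 of 10. Over all 32851 promoters of the table the shares were 7.02%, 4.65% and 0.387%. Over the 14002 promoters of tested genes they were 5.81%, 4.96% and 0.28%. The 2 windows with a match that overlap no annotated exon are printed 5′ to 3′, with the match in capitals. Both lie on the plus strand. The match in Icam1 starts 42 bases before the start site and the one in Il1r1, on the reverse strand, 232 bases before it.
Icam1 chr9:21015690-21015939: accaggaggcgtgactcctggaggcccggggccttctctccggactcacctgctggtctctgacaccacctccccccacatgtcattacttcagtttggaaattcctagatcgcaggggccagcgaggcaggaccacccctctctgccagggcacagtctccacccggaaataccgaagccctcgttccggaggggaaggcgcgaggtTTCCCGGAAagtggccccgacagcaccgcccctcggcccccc
Il1r1 chr1:40266336-40266585: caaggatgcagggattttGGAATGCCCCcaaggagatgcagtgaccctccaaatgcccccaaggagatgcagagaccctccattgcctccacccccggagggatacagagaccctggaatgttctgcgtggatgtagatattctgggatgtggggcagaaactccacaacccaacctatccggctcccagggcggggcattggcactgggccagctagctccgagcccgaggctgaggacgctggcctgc
The fallers of 2 further lists were searched in the same way. TCACNCCAC, a sterol regulatory element, was in 0 of 4 cholesterol synthesis genes with an entry (1.05% of all promoters). GAA, TTC and GAA with any 2 bases between each, a heat shock element, was in 1 of 4 heat shock genes, Hspd1. By promoter this was 1 of 6 (0.466% of all promoters). These are matches of letters only, and binding was not measured in these data.

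Genes of vessel wall activation were also higher. Icam1, the endothelial adhesion molecule that holds leukocytes, rose from 2.89 ± 0.326 TPM in controls to 8.01 ± 2.78 TPM in LLC, where replicate 4 had 4.44 TPM and the highest control 3.19 TPM, a log2 fold change of 1.16 ± 0.21. Vwf, von Willebrand factor, which tethers platelets (chromosome 6, 125546774 to 125686679), read 32.5, 28.5, 23.7 and 13.9 TPM against 4.31 to 5.81 TPM. Both genes were highest in LLC replicate 1 and lowest in LLC replicate 4, and neither group overlapped the other. Vwf rose by 2.04 ± 0.22. Of 13 tested genes of endothelial activation and leukocyte adhesion 7 rose and 0 fell, with a median of 1.04 (0.90 without LLC replicate 1). The risers numbered 3 to 8 when a library was left out. Lcn2, Lrg1 and Ch25h are among the 7 and also on the acute-phase list, and without these 3 it was 4 of 10. Vcam1, another adhesion molecule, stood at -0.08 ± 0.08 and did not pass. Ly6a, a surface protein of brain endothelium, rose by 1.10 ± 0.17, and Eng, the co-receptor endoglin, by 0.72 ± 0.11.

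Endothelial identity genes as a whole were 5 risers and 1 faller of 26, with a median of 0.40 (0.28 without LLC replicate 1). Risers numbered 1 to 11 when a library was left out. The pan-endothelial genes were split by the test. Pecam1 rose from 17.4 ± 1.41 to 28.1 ± 5.39 TPM, Cldn5, a tight junction protein, stood at 0.49 ± 0.14 on the log2 scale without passing, and Cdh5, the vascular cadherin, at 0.19. The faller was Itm2a, a membrane protein of barrier endothelium, at 53.9 to 70.5 TPM in LLC and at least 92.7 TPM in controls, a log2 fold change of -0.64 ± 0.09. Gkn3, a gastrokine gene of brain arteries, read 3.25 to 5.43 TPM against 9.17 to 16.4 TPM and fell by 1.29 ± 0.17. Itm2a and Gkn3 thus fell in the same 4 libraries in which Pecam1 rose. Of 21 barrier transporter and junction genes 2 rose, the amino acid transporter Slc38a5 (0.93 ± 0.12) and the junction protein Lsr (0.81 ± 0.12), and 1 fell, the iron exporter Slc40a1 (-0.53 ± 0.11). The glucose transporter Slc2a1 stood at 0.76 ± 0.17 with a limma adjusted p of 0.0507. Acer2, an alkaline ceramidase on the way to sphingosine-1-phosphate, rose from 4.90 ± 0.451 to 23.5 ± 7.66 TPM, a log2 fold change of 1.99 ± 0.22. In the sphingosine-1-phosphate and ceramide list the lysosomal ceramidase Asah1 fell (-0.28 ± 0.06), and the other 13 members did not pass.

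Matrix genes around the vessels included risers too. Of 15 basement membrane and vascular matrix genes 5 rose and 0 fell, with a median of 0.27 (0.18 without LLC replicate 1). When a library was left out, 0 to 7 rose. Sparc, a collagen-binding protein, read 1321, 1224, 1200 and 815 TPM in LLC replicates 1 to 4 and 599 to 679 TPM in controls. Fbln5, an elastic fibre protein, rose by 1.51 ± 0.29, and Col4a2, a collagen IV chain, by 0.81 ± 0.17. Among 15 pericyte and smooth muscle genes 1 rose, Abcc9, a potassium channel subunit of pericytes (0.59 ± 0.12). In the meningeal list Lum, the fibroblast proteoglycan lumican, fell from 10.9 ± 1.16 to 4.86 ± 0.976 TPM, alone among 16. In the choroid plexus and ependyma list Prlr, the prolactin receptor, fell by 0.68 ± 0.14, alone among 12. Vegfa, the vascular growth factor, read 137, 141, 142 and 101 TPM against 86.3 to 90.2 TPM. It and Ankrd37, a hypoxia-induced gene (0.94 ± 0.18), were the 2 risers among 19 hypoxia and VEGF response genes, of which 8 rose without LLC replicate 4 and 0 to 8 over all fits that leave out a library.

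Of 24 glucocorticoid-responsive genes 22 lay above 0 and the median was 0.64 in log2 units, but only 4 rose. Their mean difference from the controls was 0.96, 0.91 and 0.88 in LLC replicates 1 to 3 and 0.03 in LLC replicate 4. Cdkn1a, the cell cycle inhibitor p21, showed the same order, with 68.9, 60.2, 55.0 and 24.9 TPM against 15.8 to 20.9 TPM, and rose by 1.36 ± 0.27. Cebpd, a transcription factor that also answers to STAT3, rose by 1.25 ± 0.26, Map3k6, a stress kinase, by 1.21 ± 0.26, and Fam107a, an actin-binding stress protein, by 0.69 ± 0.14. Fkbp5 and Sgk1, textbook targets of the receptor, stood at 1.07 ± 0.35 and 0.99 ± 0.32 and did not pass. Without LLC replicate 4 the list had 16 risers, without LLC replicate 1 it had 7, and the range over all fits that leave out a library was 0 to 16. Gpx3, a secreted glutathione peroxidase, likewise read 80.5, 74.7, 64.5 and 16.2 TPM in LLC replicates 1 to 4 against 8.42 to 15.4 TPM. Its log2 fold change was 2.18 ± 0.44, and 2.71 without LLC replicate 4.

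LLC replicate 4 was the lowest LLC library in 129 of the 180 genes that rose. The median log2 difference of these genes from the controls was 0.72, 0.72 and 0.67 in LLC replicates 1 to 3 and 0.40 in LLC replicate 4. On the lists it was near the controls for the glucocorticoid genes and hypoxia genes (0.08), lower than the others for haemoglobin, and highest for the neutrophil genes (2.09). The labels give no tumour size or body weight, so how these libraries differ in disease was not analysed here.

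**Figure D3:**
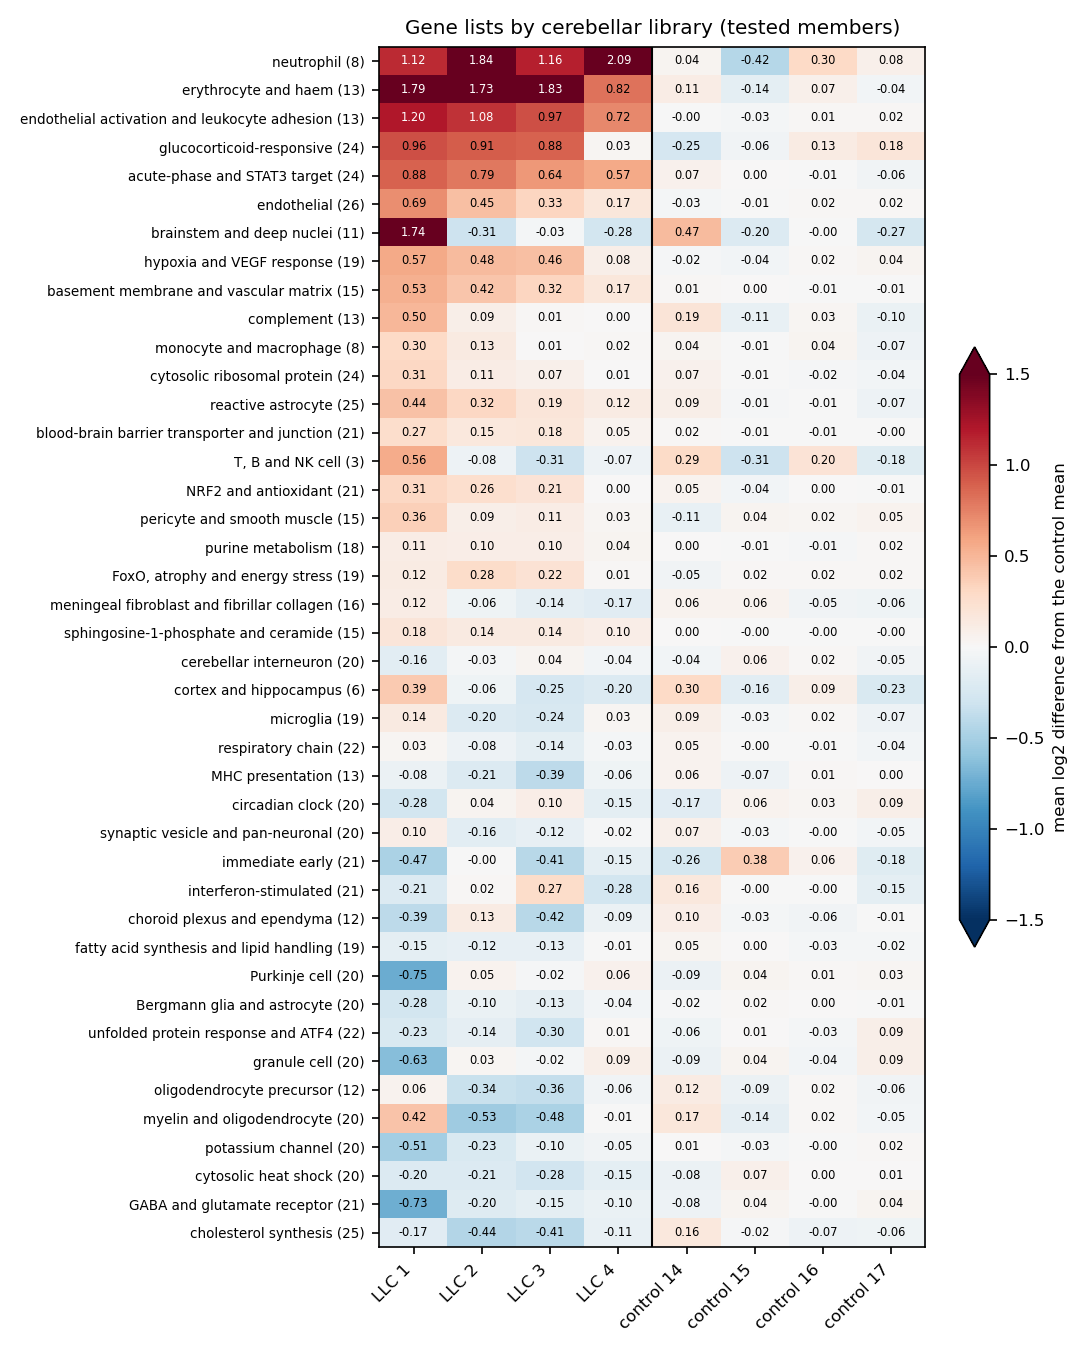
Mean log2 difference from the control mean for 42 gene lists (rows, tested members in brackets) in each of the 8 cerebellar libraries (columns), with the value printed in each cell and colours capped at 1.5. Erythrocyte, neutrophil, acute-phase and endothelial activation lists are above 0 in all 4 LLC libraries, the glucocorticoid list is near 0 in LLC replicate 4, and the brainstem list is high in LLC replicate 1.

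Among glia, changes were limited to a few genes. Fabp7, the brain fatty acid-binding protein of Bergmann glia and astrocytes, read 16.4, 14.9, 12.9 and 39.9 TPM in LLC replicates 1 to 4 and 45.4 to 85.4 TPM in controls. It fell by 1.62 ± 0.32, and LLC replicate 4 lay closest to the controls. Aqp4, the water channel of astrocyte endfeet, read 123, 126, 151 and 221 TPM against 256 to 304 TPM and fell by 0.87 ± 0.16. Hopx, a homeodomain protein of Bergmann glia, fell by 0.57 ± 0.11. Without LLC replicate 1 the log2 fold changes of Fabp7, Aqp4 and Hopx were -1.55, -0.78 and -0.46, and all 3 passed. Their highest limma adjusted p over the fits that leave out a library was 0.131, 0.129 and 0.133. Fabp7 and Aqp4 passed in 2 of these 8 fits. Of 20 tested Bergmann glia and astrocyte genes these 3 fell and Aldoc, the glycolytic enzyme aldolase C, rose (0.30 ± 0.06); Purkinje cells express Aldoc too. The list had 0 to 8 fallers when a library was left out, and the reactive astrocyte list 1 to 7 risers. Slc1a3, the glutamate transporter of Bergmann glia, and Gfap, the astrocyte filament, stood at -0.10 and -0.21 and did not pass. Reactive astrocyte genes had 3 risers of 25 (Lcn2, Osmr and Fbln5), each also on another list. Gpr17, a receptor of oligodendrocyte precursors, read 3.15 to 6.25 TPM against 8.42 to 10.8 TPM and fell by 0.91 ± 0.16, alone among 12 precursor genes. None of 20 myelin genes passed, with a median of -0.16. Without LLC replicate 1 the myelin list had 3 fallers and a median of -0.32. Mean differences of the myelin genes were 0.42, -0.53, -0.48 and -0.01 in LLC replicates 1 to 4.

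Some genes of cholesterol synthesis were lower. Of 25 tested members 0 rose and 6 fell, with a median of -0.31, and every LLC library was below every control in 8. Idi1, the isoprenoid isomerase, fell by 0.62 ± 0.13, Stard4, a sterol carrier, by 0.53 ± 0.10, and Sc5d, a late desaturase, by 0.46 ± 0.08. Srebf2, the transcription factor that drives the pathway, fell by 0.44 ± 0.10, and Cyp51, the lanosterol demethylase, by 0.60 ± 0.13; these were named after their values were seen. Without LLC replicate 1 the list had 10 fallers, and 0 to 10 over all fits that leave out a library. Its mean difference was -0.17, -0.44, -0.41 and -0.11 in LLC replicates 1 to 4 and 0.16 in control replicate 14, the highest control. The myelin list was likewise lowest in LLC replicates 2 and 3 (-0.53 and -0.48) and, among controls, highest in replicate 14 (0.17); its part in the cholesterol result was not tested. In fatty acid synthesis and lipid handling the desaturases Fads2 (-0.56 ± 0.10) and Fads1 (-0.50 ± 0.11) fell and the regulator Srebf1 rose (0.45 ± 0.10), among 19 genes.

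Of 20 heat shock genes 0 rose and 4 fell, with a median of -0.18, and in 10 every LLC library was below every control. Chordc1, an HSP90 co-chaperone, fell by 0.51 ± 0.09, Hsph1, an exchange factor of HSP70, by 0.50 ± 0.10, its relative Hspa4l by 0.48 ± 0.10, and Hspd1, the mitochondrial chaperonin, by 0.32 ± 0.07. Without LLC replicate 1 the list had 9 fallers, and 0 to 9 over all fits that leave out a library. Slc7a11, the cystine importer, read 5.78 to 7.15 TPM in LLC and 11.1 to 11.7 TPM in controls. The groups lay far apart relative to their spread, and the log2 fold change was -0.77 ± 0.08. It was the only faller among 22 genes of the unfolded protein response and ATF4 and among 21 NRF2 and antioxidant genes, where Gstm1, a glutathione transferase, rose by 0.39 ± 0.08 beside Gpx3. Dbp, a clock output factor, fell by 0.67 ± 0.12, alone among 20 clock genes.

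Many of the largest falls were in genes with long transcripts. The longest annotated transcript has 12052 bases for Lnpep, 12574 for Ptar1, 14579 for Arfgef3 and 15257 for Dgkh, though 4212 for Plcxd3 and 1902 for Kcna3. Lnpep, a membrane aminopeptidase (chromosome 17, 17521410 to 17625050), read 1.85, 14.7, 12.7 and 8.38 TPM in LLC replicates 1 to 4 and 36.3, 58.8, 43.9 and 28.6 TPM in controls. LLC replicate 1 was by far the lowest, but the other 3 were also below every control. The log2 fold change was -2.25 ± 0.47, and -1.71 without LLC replicate 1. Plcxd3, a phospholipase-like gene, read 0.159, 1.76, 1.18 and 0.547 TPM against 3.95 to 11.7 TPM, a log2 fold change of -2.09 ± 0.32, and -1.88 without LLC replicate 1. Ptar1, a prenyltransferase subunit, stood at -1.93 ± 0.39 and -1.48 without that library, and Lmbrd2, a membrane protein, at -1.87 ± 0.34 and -1.51. Arfgef3, an exchange factor homologue, stood at -1.78 ± 0.36 and -1.41, and Lcor, a nuclear receptor corepressor, at -1.75 ± 0.29 and -1.47. Fzd3, a Wnt receptor that guides axons, fell by 1.52 ± 0.24, Dgkh, a diacylglycerol kinase, by 1.47 ± 0.27, and Kcna3, a voltage-gated potassium channel, by 1.27 ± 0.22. All of these passed without LLC replicate 1, but none passed in every fit that leaves out a library. Lnpep, Ptar1, Lmbrd2, Arfgef3, Lcor, Fzd3 and Dgkh passed in 2 of these 8 fits, Kcna3 in 3 and Plcxd3 in 4.

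Over the 186 fallers the median length of the longest annotated transcript was 4764 bases, against 3346 bases over all tested genes and 2390 bases over the 180 risers. Of the fallers with a known length 27.3% were among the longest 10% of all genes, from 6842 bases upward, against 2.35% of the risers. LLC replicate 1 was the lowest LLC library in 131 of the 186. With each library's trend with transcript length removed, an alternative chosen after seeing the data, 330 of the 366 calls held and 294 genes fell. The 330 count risers and fallers together, and only the mean trend of a library over its genes was removed. In the longest 10% of genes LLC replicates 1 and 2 lay below every control, and LLC replicates 3 and 4 lay at or within the lower edge of the controls. The part of length in these falls was not tested. RNA integrity is not among the labels used here.

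**Figure D4:**
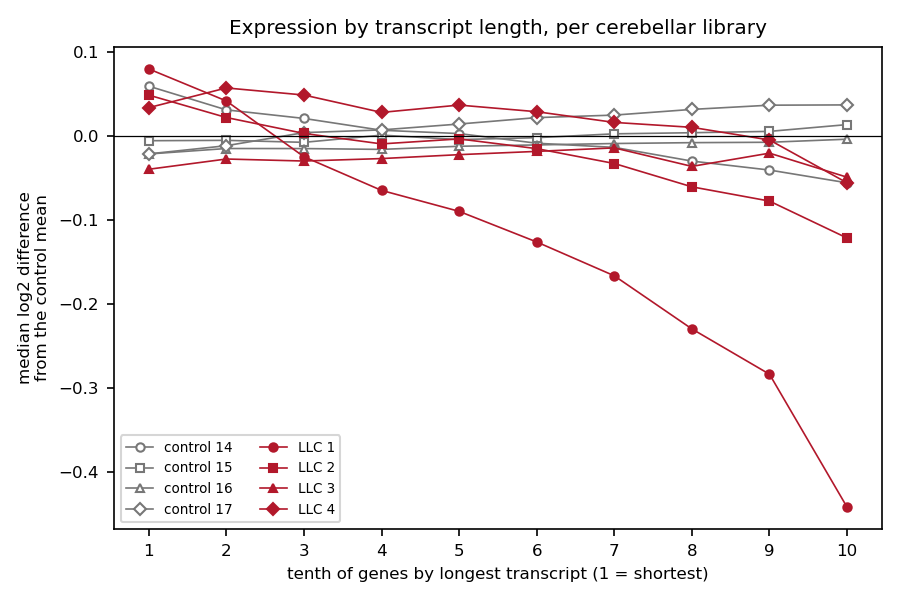
Median log2 difference from the control mean for tested genes split into 10 equal groups by longest transcript (1 is the shortest), 1 line per cerebellar library. LLC replicate 1 declines from 0.08 to -0.44 and LLC replicate 2 from 0.05 to -0.12, and the other 6 libraries stay between -0.06 and 0.06.

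Neuronal gene lists showed little that passed. None of 20 granule cell genes and none of 20 synaptic and pan-neuronal genes did. Aldoc was the only call among 20 Purkinje cell genes and Npy the only one among 20 interneuron genes. The medians of the granule and Purkinje lists were -0.16 and -0.13, and -0.00 and 0.02 without LLC replicate 1. Car8, a Purkinje cell protein that binds the calcium channel of the endoplasmic reticulum, read 495 TPM in LLC replicate 1 and 1049 to 1304 TPM in the other LLC libraries, against 1273 to 1475 TPM in controls. Of 21 GABA and glutamate receptor genes 1 fell, Gabra2, at 7.18 to 10.7 TPM against 12.4 to 14.3 TPM (-0.66 ± 0.12). None of 20 potassium channel genes on the list, 21 immediate early genes or 22 respiratory chain genes passed. Fos, an activity marker, stood at -1.16 ± 0.47. None of 24 ribosomal protein genes passed either, although 23 had a fold change above 0, with a median of 0.15; it was 0.07 without LLC replicate 1.

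The LLC effect in cerebellum was then set against the effects in neocortex and hippocampus, as a contrast in 1 fit of the 24 libraries. It differed from the neocortex effect in 89 of 13783 genes (0.646%), higher in 11 and lower in 78, and from the hippocampus effect in 13 of 13884 (0.0936%), higher in 6 and lower in 7. When a cerebellar library was left out, 22 (without control replicate 15) to 303 (without LLC replicate 4) genes differed from neocortex and 4 (without LLC replicate 2 or control replicate 16) to 161 (without LLC replicate 4) from hippocampus. With the replicate number of the titles, which the regions share, as a block, 205 genes differed from neocortex (33 higher, 172 lower) and 40 from hippocampus (14 higher, 26 lower), among them 86 of the 89 and 12 of the 13. None of the named blood cell genes tested in both regions differed in either fit. Of the named acute-phase genes none differed without the block, and with it Lrg1 exceeded its hippocampus effect, by 0.76 ± 0.15 (limma adjusted p = 0.0468). Lcn2, for example, had a log2 fold change of 2.60 in cerebellum, 2.67 in neocortex and 2.02 in hippocampus, and Hbb-bt 3.28, 3.32 and 3.01.

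Gda, guanine deaminase, which breaks down guanine, had effects of opposite sign in cerebellum and in the forebrain regions. Its control mean in cerebellum was below 1 TPM, so it entered the test only through the LLC libraries. It read 2.05, 2.05, 1.66 and 1.62 TPM in LLC replicates 1 to 4 and 0.621, 0.394, 0.557 and 0.606 TPM in controls, a log2 fold change of 0.88 ± 0.11. In neocortex it stood at 172 ± 4.99 TPM in controls and 156 ± 8.50 TPM in LLC, and in hippocampus at 144 ± 4.2 and 127 ± 10.7 TPM (SD, n = 4 each). The cerebellar effect exceeded the others by 1.02 ± 0.09 and 1.06 ± 0.09 (SE). The level in cerebellum is far below that of the forebrain. Neurod6, a marker of forebrain neurons, had 8.72 to 12.4 TPM in the cerebellum of LLC mice and no more than 12.6 TPM in that of controls. Npy, the precursor of neuropeptide Y, read 49.8, 72.4, 60.4 and 41.9 TPM against 31.5 to 38.1 TPM and rose by 0.67 ± 0.15, with -0.04 in neocortex and -0.36 in hippocampus. The differences were 0.71 ± 0.15 and 1.03 ± 0.15.

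A pair of transcripts of neural progenitors and astroglia showed the reverse case, with the larger fold changes outside the cerebellum. Vim, the filament vimentin, stood in cerebellum at 195 ± 14.6 TPM with tumours and 227 ± 20.8 TPM without, a log2 fold change of -0.21 ± 0.08 that did not pass, against 0.76 in neocortex and 0.80 in hippocampus. Hes5, a Notch target, stood at 0.18 ± 0.10 in cerebellum without passing, against -0.91 and -1.14. Both differed from both regions. Klf10, a zinc finger factor, stood at 0.19 ± 0.11 in cerebellum and -0.81 in neocortex, a difference of 1.01 ± 0.14. The long-transcript genes made up the other end. Lnpep differed from neocortex by -2.27 ± 0.48, with an effect of 0.02 there and -1.02 in hippocampus, and its difference from hippocampus (-1.23 ± 0.48) did not pass. Effects of Lmbrd2 and Ptar1 were -0.10 and -0.08 in neocortex and -0.67 and -0.89 in hippocampus. Samd5, a SAM domain gene, fell in cerebellum by 0.88 ± 0.16, and Shisa9, a regulator of AMPA receptors, by 0.66 ± 0.10. Samd5 differed from both regions and Shisa9 from hippocampus, by -0.78 ± 0.14. With the replicate block, differences from neocortex also passed for Cdkn1a (0.71), Shisa9 (-0.47), Abcc9 (-0.43) and Fads2 (-0.35), and for Klf10 from hippocampus (0.63).

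**Figure D5:**
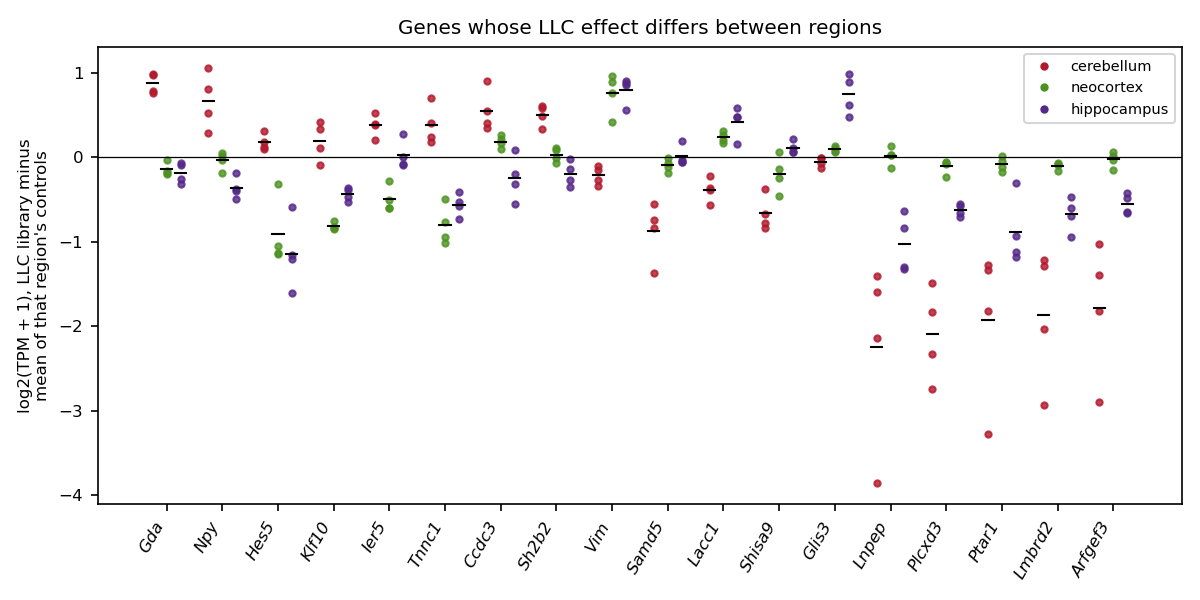
Difference of each LLC library from the mean of its own region's controls, in log2(TPM + 1), for 18 genes named for a difference between regions, with 4 points and their mean (bar) for cerebellum, neocortex and hippocampus. Gda and Npy are above 0 in all 4 cerebellar LLC libraries, Vim and Hes5 lie further from 0 in the other regions, and Lnpep to Arfgef3 fall furthest in cerebellum.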

How the data were processed

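Libraries were made from Trizol-extracted RNA with Illumina's stranded TruSeq mRNA kit and run on a NovaSeq, per the labels' protocols. What the authors deposited is a single table, in TPM, with 47643 symbols and 24 libraries. Per the submitters' processing notes the reads were placed on mm10. Aligner, counter and gene models: not given in the sources used here. Since TPM is relative to the library total, a larger share for one gene lowers the rest, and the number of reads behind a value is unknown. No 2 cerebellar libraries were identical. P-values set a difference against the spread between libraries, which limma draws towards a trend over all genes.

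Tests used limma 3.58.1 (lmFit, trended eBayes; R 4.3.3) over the 8 cerebellar libraries on log2(TPM + 1), for genes with a mean of at least 1 TPM, two-sided, at a Benjamini-Hochberg adjusted p of 0.05. Fold changes are differences of log2(TPM + 1) and are too small for low genes. Contrasts between regions used 1 fit of 24 libraries, which pools their spread, over genes with a mean of at least 1 TPM in each of the 2 regions. The labels do not say whether libraries of different regions with the same title number came from 1 animal. Deviations from the group means correlated at 0.11 to 0.48 in all 8 cerebellum and neocortex pairs and at -0.04 to 0.47 with hippocampus. Pairs with unlike numbers were not compared with these. On this ground the number was taken to pair cerebellum with neocortex, and a fit with it as a block is given beside the contrasts. Differences between regions and their SEs are from the fit without the block unless the block is named. The code was checked on simulated data. Coordinates and lengths came from GENCODE M21, where 94.6% of symbols matched 1 gene, and promoters from RefSeq (GRCm38.p6). Plots used matplotlib 3.10.9 under Python 3.11.15.

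The comparison, the 42 gene lists and the tests were chosen with earlier results of these data known. Named genes were the 15 largest rises and 15 largest falls among genes passing without overlap, passing members of each list (at most 4 by p), and the 5 largest passing differences in each direction per region contrast; predicted genes and pseudogenes were left out, and a few named genes are not reported here. Icam1, Il1r1, Socs3, Pecam1, Slc4a1, Srebf2, Cyp51 and the genes given as not passing outside this rule were chosen after their values were seen. Other settings tried were no filter or one at 5 TPM, a pseudocount of 0.1, 2 other scalings (median ratios, quantiles), robust eBayes, weighted libraries, 1 fit of the 24 libraries, a replicate block and the omission of each library. Added after seeing the data were weights per region and the removal of each library's transcript length trend (natural spline with 4 degrees of freedom).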

Additional observations from a re-analysis of the deposited data

Results flagged for a closer look

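Among 172 groups of 4 libraries (the 86 named genes in LLC and in control cerebellum), 9 had a value far from the other 3, across most of the group's range. Chance alone flags about 1 in 20 independent groups. Genes such as the haemoglobin genes vary together, so the count of 9 of 172 cannot be judged against this rate. LLC replicate 4 was the library that stood apart in 7 of the 9. It was the lowest of the LLC libraries for Hbb-bt (520 TPM), Hba-a1 (925 TPM), Hba-a2 (1148 TPM) and Vegfa (101 TPM), and the highest for Fabp7 (39.9 TPM), Fads2 (103 TPM) and Gabra2 (10.7 TPM). All 7 values were on the control side of the other LLC libraries. Control replicate 14 was the highest control for Gpx3 (15.4 TPM) and the lowest for Ankrd37 (9.59 TPM).

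The LLC effect in cerebellum differed from that in another region, by the contrast in limma, for the named genes that follow, with the cerebellar effect minus the other effect in log2 units. Above neocortex stood Tnnc1 (1.19), Hes5 (1.09), Gda (1.02), Klf10 (1.01), Ier5 (0.88) and Npy (0.71). Below neocortex stood Lnpep (-2.27), Plcxd3 (-1.99), Ptar1 (-1.85), Lmbrd2 (-1.77), Arfgef3 (-1.76), Lcor (-1.74), Fzd3 (-1.46), Dgkh (-1.45), Klhl28 (-1.44), Xkr4 (-1.32), Kcna3 (-1.17), Arhgap5 (-1.15), Uprt (-1.09), Vim (-0.97), Gpr17 (-0.89), Samd5 (-0.78), Lum (-0.77), Slc7a11 (-0.71) and Lacc1 (-0.62). Above hippocampus stood Hes5 (1.32), Gda (1.06), Npy (1.03), Ccdc3 (0.80) and Sh2b2 (0.70). Below hippocampus stood Vim (-1.01), Samd5 (-0.89), Lacc1 (-0.81), Glis3 (-0.79) and Shisa9 (-0.78). Of the genes below neocortex, those from Lnpep to Uprt had effects between -0.12 and 0.02 in neocortex itself. In hippocampus their effects lay between -1.02 and -0.40, and none differed from hippocampus. Plcxd3 is left out here, as it was not in the hippocampus contrast.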

How the results depend on the processing

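Against 366 genes called (180 higher, 186 lower), a pseudocount of 0.1, a mean of 5 TPM and robust eBayes gave 348, 322 and 357. The count was 71 (51 higher, 20 lower) with no filter on low values, 653 (377 higher, 276 lower) with median-ratio scaling, 825 (472 and 353) with quantile normalization, 5769 (2545 and 3224) with library weights, 3012 (1088 and 1924) with all 24 libraries in 1 fit, and 565 (271 and 294) with the length trend removed. Leaving out 1 library gave 6 to 1570 calls, 6 to 648 higher and 0 to 950 lower. The fit without control replicate 16 called 0 genes lower. No call changed sign in any of these settings, and the median of all genes moved by less than 0.1. Against 89 genes whose effect differed from neocortex, leaving out 1 library gave 22 to 303 and weights per region 94. Against 13 for hippocampus, it gave 4 to 161, a mean of 5 TPM gave 3 and weights per region 6. The causes were not tested.

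Control and LLC libraries share description numbers, and with this number as a replicate block 724 genes passed (276 higher, 448 lower). Deviations of same-numbered libraries correlated at 0.46, 0.26, 0.01 and 0.13, and for 2 of the 4 numbers the best match was the library's own number, and as 1 of the 4 correlations was under 0.1 the number was not taken to pair these libraries. With the title number as a replicate block across regions, 205 genes differed from neocortex and 40 from hippocampus. Depth is unknown, so the limit it sets on low genes cannot be given.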
